A study of Mus with 8 samples.

Results

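Contractile actin and its partners are described here in 3T3-L1 cells, as 10 genes of the 24013 in the deposited count table: Srf, Acta2, Actg2, Tagln, Cnn1, Myl9, Tpm1, Tpm2, Vcl and Ankrd1. The genes were taken by name, for their known place in contractile filaments or among the targets of serum response factor (SRF), and with earlier results of these data known, so the counts of called genes describe the group and are no independent evidence of its direction. 3T3-L1 is a mouse preadipocyte line, a fibroblast-like line that stores fat after a hormonal trigger. C cells had been infected with a pLKO.1 lentivirus carrying a scrambled shRNA, and P cells with the same vector carrying an shRNA against Prep1 (gene Pknox1), a homeodomain transcription factor, and both were selected with puromycin. RNA was sequenced at day −2, in growing medium with BCS serum and before any trigger, and at day 1, after the change to medium with 10% FBS that held insulin at 1 µg/ml, dexamethasone at 1 µM and the phosphodiesterase inhibitor 3-isobutyl-1-methylxanthine at 0.5 mM. Each of the 4 conditions had 2 biological replicas, so 8 libraries were measured. A single shRNA against Prep1 was sequenced in a single cell line. By the paper's methods, 3T3-L1 cells received the trigger 2 days after reaching confluence. Libraries from before and after the trigger thus differ in serum and in time since confluence as well. Induction is the name used below for this whole step from day −2 to day 1. The separate parts of the trigger, the serum and the time since confluence were not tested.

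SRF is a DNA-binding protein that sits on the CArG box, a short element in front of many muscle and cytoskeletal genes. It works with either of 2 families of cofactors. The myocardin-related factors (genes Mrtfa and Mrtfb) are held by monomeric actin and move to the nucleus when actin polymerises, and they drive genes of contractile filaments and focal adhesions. The ternary complex factors (genes Elk1, Elk3 and Elk4) answer to MAP kinases and drive immediate early genes such as Fos and Egr1. Preadipocytes are spread cells with actin stress fibres, and they lose these fibres and become round as they turn into adipocytes.

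The libraries held between 20428816 and 27614353 counts on 16232 to 18484 genes, and 3 counts corresponded to between 0.107 and 0.160 CPM (counts relative to library size, on sizes scaled by TMM), a floor that covers counting error only. Pknox1 lay at 28.1 and 26.5 CPM in C cells and 17.3 and 18.3 CPM in P cells at day −2, and at 38.1 and 36.5 CPM against 23.6 and 23.8 CPM at day 1. Its log2 ratios of P against C were −0.62 (adjusted p = 0.0558) and −0.65 (adjusted p = 0.0575), lower at both days and within a ratio of 2. The replicas of P cells at day −2 stood apart from each other: over the 5600 genes with a log2 CPM over 5, the SD of the difference between replicas was 0.795 there and between 0.121 and 0.261 in the other conditions. No pair of replicas came as close as sampling noise alone would put them, so all 8 libraries were counted as separate samples. Of the preadipocyte or fibroblast markers, 8 of 8 were detected in each condition. Their sum lay at 21407 and 65718 CPM in P cells at day −2 and between 16696 and 29288 CPM in the other libraries. All listed smooth muscle, epithelial, endothelial and blood markers were detected in each condition too, so detection alone does not tell cell kinds apart. Their sums reached up to 172, 3.31, 1.33 and 5.51 CPM. The identity of the cells was not tested further. The sum of 6 adipocyte markers was between 1.89 and 2.88 CPM in C cells, between 27.3 and 35.0 CPM in P cells at day −2, and between 142 and 143 CPM in P cells at day 1. In RNA from a whole culture, fewer cells of a kind and less RNA per cell cannot be told apart.

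Of the 10 genes, 9 had enough counts to be tested, and Cnn1 did not. The gene coding for SRF itself, Srf, was measured at 96.4 and 87.0 CPM in C cells at day −2 and at 231 and 126 CPM in P cells at day −2. At day 1 it was measured at 122 and 136 CPM in C cells and at 150 and 136 CPM in P cells. Both P libraries of day −2 lay above both C libraries of that day, whereas the C and P libraries of day 1 overlapped. Over all 8 libraries Srf stayed between 87.0 and 231 CPM.

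Acta2 codes for smooth muscle alpha-actin, the actin of stress fibres in contractile fibroblasts. C cells took it from 439 and 404 CPM at day −2 to 14.9 and 14.5 CPM at day 1. P cells took it from 2053 and 2599 CPM to 99.4 and 98.0 CPM. The 4 conditions did not overlap, and from high to low they stood as P then C cells before the trigger, and P then C cells after it. Actg2, which codes for smooth muscle gamma-actin, had 12.9 and 12.1 CPM in C cells and 140 and 171 CPM in P cells at day −2. At day 1 it had 1.30 and 0.717 CPM in C cells and 3.89 and 3.92 CPM in P cells. Its order over the conditions was that of Acta2, again without overlap.

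Tagln codes for transgelin (SM22), an actin-binding protein of smooth muscle. It lay at 18.8 and 15.9 CPM in C cells and at 156 and 191 CPM in P cells at day −2. At day 1 it lay at 0.237 and 0.119 CPM in C cells, which were 6 and 3 counts, and at 2.26 and 3.13 CPM in P cells, which were 53 and 67 counts. Myl9 codes for the regulatory light chain of smooth muscle and non-muscle myosin, whose phosphorylation starts contraction. It was measured at 34.0 and 32.0 CPM in C cells and at 207 and 334 CPM in P cells at day −2. At day 1 it was measured at 0.908 and 1.39 CPM in C cells and at 14.6 and 12.2 CPM in P cells. Tagln and Myl9 showed the order of Acta2 over the conditions, and neither had overlapping conditions. Cnn1, which codes for calponin 1, a binding partner of actin in differentiated smooth muscle, was close to the floor: it had 4 and 3 counts in C cells and 6 and 29 counts in P cells at day −2, and 2 counts in each of the 4 libraries of day 1.

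Tropomyosins lie along the actin filament and gate the access of myosin. Tpm1 lay at 765 and 676 CPM in C cells and at 1953 and 1131 CPM in P cells at day −2. It lay at 105 and 125 CPM in C cells and at 136 and 137 CPM in P cells at day 1. Both P libraries were above both C libraries at each day, by a wide margin at day −2 and by a narrow one at day 1. Tpm2 lay at 81.1 and 63.7 CPM in C cells and at 238 and 120 CPM in P cells at day −2. At day 1 it lay at 29.5 and 37.9 CPM in C cells and at 33.3 and 36.7 CPM in P cells, where both P libraries fell between the C libraries.

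Vcl codes for vinculin, which ties actin filaments to focal adhesions and whose protein the study used as a loading control in blots. It had 455 and 428 CPM in C cells and 689 and 529 CPM in P cells at day −2, and 162 and 222 CPM in C cells and 214 and 169 CPM in P cells at day 1. Ankrd1, which codes for an ankyrin repeat protein of the muscle sarcomere and nucleus and is a common readout of YAP as well as SRF, had 18.8 and 17.9 CPM in C cells and 10.1 and 15.8 CPM in P cells at day −2. At day 1 it had 0.631 and 1.08 CPM in C cells, or 16 and 27 counts, and 0.342 and 0.280 CPM in P cells, or 8 and 6 counts. Vcl libraries of C and P cells overlapped at day 1. Ankrd1 was the one gene of the 10 in which both P libraries lay below both C libraries at both days, and edgeR called it at neither day. With 2 libraries on each side, an order without overlap is weak evidence, here and for the genes above. The share of such orders over all genes was not counted.

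**Figure D1:**
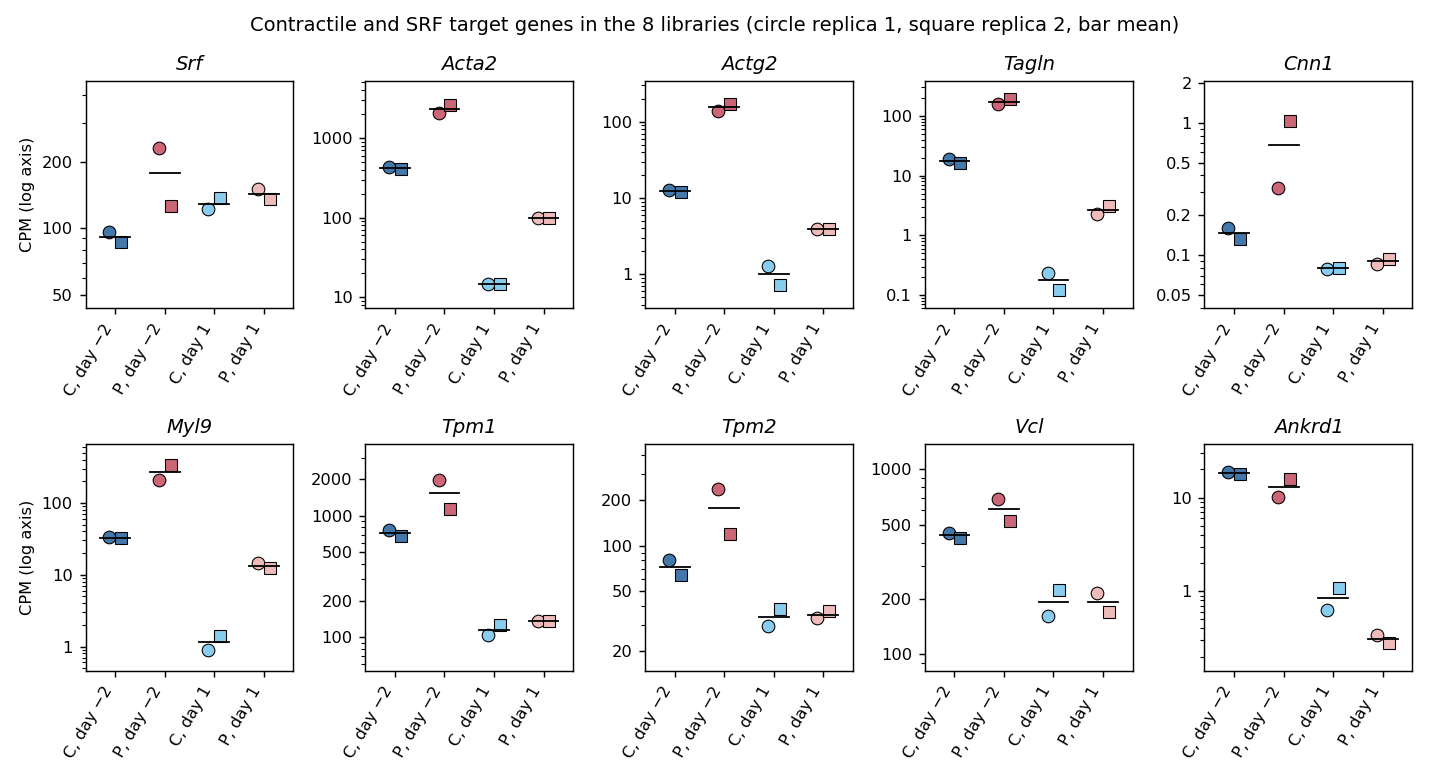
Level of each of the 10 genes in CPM (log axis) in the 8 libraries, in 4 columns per panel: C and P cells at day −2 and C and P cells at day 1, with 1 point per library. Acta2, Actg2, Tagln and Myl9 step down from day −2 to day 1, with the P libraries above the C libraries at both days. Srf lies between 87.0 and 231 CPM over the 8 libraries, and Ankrd1 has its P libraries below its C libraries.

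The first comparison asks how the contractile genes moved after the trigger in C cells. They fell: 8 of the 9 tested genes were called lower (edgeR quasi-likelihood test, Benjamini-Hochberg adjusted p under 0.1 and a ratio under 0.5), beside 9.68% of all 13339 genes called lower and 10.7% called higher. The median log2 ratio of the 9 genes was −3.62, beside −0.01 for all genes. Tagln fell by 6.57 on the log2 scale, the most of the 9 (SE 0.34, adjusted p = 8.0e-05). Its counts of 9 at day 1 against 832 at day −2 gave a 97.9-fold lower level, with a 95% exact interval from 51.3 to 215 for counting error. Acta2 was 28.7-fold lower (log2 ratio −4.84, SE 0.19, adjusted p = 6.2e-05) and Myl9 28.5-fold lower (log2 ratio −4.84, SE 0.33, adjusted p = 2.1e-04). Ankrd1 was 21.4-fold lower (log2 ratio −4.42, SE 0.35) and Actg2 12.3-fold lower (log2 ratio −3.62, SE 0.28). From the lowest ratio upwards, Tagln was number 42 of the 13339 genes, Acta2 104, Myl9 107, Ankrd1 142 and Actg2 238.

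The tropomyosins and vinculin fell less in C cells. Tpm1 was 6.26-fold lower (log2 ratio −2.65, SE 0.28, adjusted p = 9.8e-04), Vcl 2.30-fold lower (log2 ratio −1.20, SE 0.23, adjusted p = 0.0101) and Tpm2 2.14-fold lower (log2 ratio −1.10, SE 0.33, adjusted p = 0.0480). The calls of Tpm2 and Vcl rested on single libraries: Tpm2 was no longer called when any 1 of the 4 C libraries was left out, and Vcl came to −0.96 without replica 1 of C cells at day 1. Srf was not called, with a log2 ratio of 0.49 (SE 0.27, adjusted p = 0.226).

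The same step was taken in P cells, and the same 8 genes were called lower there, beside 10.4% of all genes called lower and 7.65% called higher. Their median log2 ratio, with Srf, was −4.33, beside 0.02 for all genes. Tagln was 64.3-fold lower (log2 ratio −6.01, SE 0.28, adjusted p = 1.3e-04), Ankrd1 40.9-fold lower (log2 ratio −5.35, SE 0.40, adjusted p = 4.0e-04) and Actg2 39.8-fold lower (log2 ratio −5.31, SE 0.28, adjusted p = 1.3e-04). Acta2 was 23.6-fold lower and Myl9 20.1-fold lower. Counted from the lowest ratio, Tagln was number 14 of 13339 genes, Ankrd1 26, Actg2 28, Acta2 55 and Myl9 62. Tpm1 was 11.3-fold lower (log2 ratio −3.50, SE 0.29), Tpm2 5.11-fold lower (log2 ratio −2.35, SE 0.34) and Vcl 3.18-fold lower (log2 ratio −1.67, SE 0.23), each with an adjusted p up to 0.0045. All 8 calls were held whichever single library was left out. Srf had a log2 ratio of −0.32 (adjusted p = 0.425), which turned to 0.17 without replica 1 of P cells at day −2. Cnn1 had 4 counts at day 1 against 35 at day −2, an 8.38-fold lower level with a 95% exact interval from 3.00 to 32.5 for counting error, and 29 of these 35 counts were from 1 library.

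**Figure D2:**
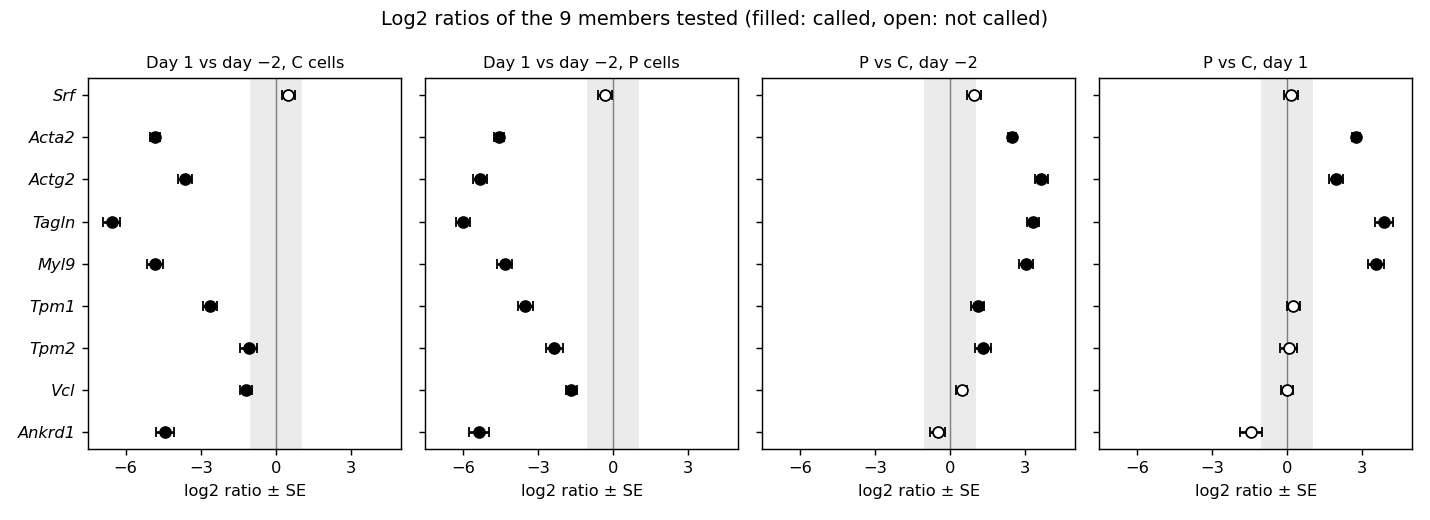
Log2 ratio with its SE (bars) of the 9 tested genes in the 4 comparisons, with filled points for called genes and a grey band for ratios between 0.5 and 2. Both inductions put 8 genes below the band with Srf inside it, and P against C cells put Acta2, Actg2, Tagln and Myl9 above the band at both days.

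P against C cells at day −2 asks what the knockdown did to these genes before the trigger. In P cells 6 of the 9 genes were higher, beside 4.83% of all genes called higher and 2.15% called lower, and their median log2 ratio was 1.31 beside 0.01 for all genes. Actg2 was 12.4-fold higher (log2 ratio 3.64, SE 0.25, adjusted p = 0.00146), Tagln 9.98-fold (log2 ratio 3.32, SE 0.24, adjusted p = 0.00162), Myl9 8.21-fold (log2 ratio 3.04, SE 0.28, adjusted p = 0.00276) and Acta2 5.52-fold (log2 ratio 2.46, SE 0.17, adjusted p = 0.00146). From the highest ratio down, Actg2 was number 42 of 13339 genes, Tagln 60, Myl9 91 and Acta2 167. These 4 genes were called in every alternative setting that tested them, also with either P library of that day left out. A list of 6 smooth muscle markers, with Cnn1 among them, summed to between 96.7 and 172 CPM in P cells at day −2. In C cells of that day it summed to between 52.6 and 61.0 CPM. Most of each sum was Smtn, at 142 and 79.1 CPM in P cells and 55.2 and 47.8 CPM in C cells. Of the list, Myocd stayed near the floor in all libraries, at up to 0.256 CPM. Myh11, the heavy chain of smooth muscle myosin, lay at 0.199 and 0.266 CPM in C cells at day −2. In P cells it lay at 1.33 and 1.11 CPM, and it was called higher there (log2 ratio 2.36, adjusted p = 0.038). Smtn and Lmod1 were also called higher, Des was not called (log2 ratio 0.31, adjusted p = 0.667), and Myocd and Cnn1 were too low to test. The part of other cells in these ratios was not tested.

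The tropomyosin genes Tpm1 and Tpm2 also passed as higher in P cells before the trigger, with log2 ratios of 1.10 (SE 0.26, adjusted p = 0.0634) and 1.31 (SE 0.33, adjusted p = 0.0695). Both calls were lost when any single library was left out, except with replica 2 of P cells at day −2 left out, and over the 8 single omissions the log2 ratios ranged from 0.66 to 1.44 for Tpm1 and from 0.74 to 1.72 for Tpm2. Srf had a log2 ratio of 0.96 (SE 0.28, adjusted p = 0.0958, 95% interval 0.31 to 1.61), so that its adjusted p was under the threshold and its 1.95-fold ratio was just inside 2. Over the 8 single omissions the log2 ratio of Srf ranged from 0.46 to 1.33, the highest without replica 2 of P cells at day −2. Vcl had a log2 ratio of 0.46 (adjusted p = 0.241, 95% interval −0.07 to 1.00) and Ankrd1 one of −0.50 (adjusted p = 0.309, 95% interval −1.20 to 0.19), neither called. Cnn1 had 35 counts against 7, a 5.09-fold ratio with a 95% exact interval from 2.23 to 13.6 for counting error. It was not called in a model without the filter on low counts (log2 ratio 2.19, adjusted p = 0.224).

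The 2 P libraries of day −2 ordered these genes in opposite ways. From replica 1 to replica 2, the log2 difference was 0.34 for Acta2, 0.29 for Actg2, 0.30 for Tagln, 0.69 for Myl9 and 0.65 for Ankrd1. It was −0.87 for Srf, −0.79 for Tpm1, −0.98 for Tpm2 and −0.38 for Vcl. The genes with the high ratios to C cells were thus lower in replica 1, and Srf, the tropomyosins and vinculin were higher in it. For the first 4 genes the difference between replicas was small beside the ratio to C cells, and for Srf, Tpm1 and Tpm2 it was nearly as large.

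At day 1, P cells held more of 4 of the 9 genes, beside 1.83% of all genes called higher and 2.23% called lower. Tagln was 14.7-fold higher (log2 ratio 3.88, SE 0.36, adjusted p = 0.00419), with a 95% exact interval for counting error from 7.65 to 33.6 around the 15.0-fold ratio of its 120 counts against 9. Myl9 was 11.6-fold higher (log2 ratio 3.54, SE 0.32, adjusted p = 0.00407), Acta2 6.71-fold higher (log2 ratio 2.75, SE 0.17, adjusted p = 0.00113) and Actg2 3.85-fold higher (log2 ratio 1.95, SE 0.28, adjusted p = 0.0165). From the highest ratio down, Tagln was number 95 of 13339 genes, Myl9 121, Acta2 196 and Actg2 327. The call of Actg2 was lost without replica 2 of C cells at day 1 (log2 ratio 1.57, adjusted p = 0.111) and without either P library of day 1 (adjusted p 0.149 and 0.148). The median log2 ratio of the 9 genes was 0.25, beside 0.01 for all genes.

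The other 5 genes were not called at day 1. The log2 ratio was 0.14 for Srf (95% interval −0.50 to 0.79), 0.25 for Tpm1 (−0.37 to 0.86), 0.05 for Tpm2 (−0.72 to 0.82) and 0.00 for Vcl (−0.53 to 0.53). A ratio of 2 lay outside each of these intervals. Ankrd1 had a log2 ratio of −1.44 (SE 0.43, 95% interval −2.47 to −0.41) and missed the threshold (adjusted p = 0.151). It was called lower by DESeq2 (log2 ratio −1.48, adjusted p = 0.0879) and by edgeR when either or both P libraries of day −2 were left out (adjusted p from 0.0265 to 0.0281). The level that remained in P cells at day 1 lay below that of C cells at day −2 for all 8 genes called lower by induction: Acta2, for example, stood at 99.4 and 98.0 CPM there, beside 439 and 404 CPM in C cells before the trigger.

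The fall in P cells was set against the fall in C cells by the interaction of cell and day. None of the 9 genes was called by edgeR, beside 1.93% of all genes called lower and 0.435% called higher. An unadjusted p under 0.05 was found for 2 of them, beside 1922 of all 13339 genes. DESeq2 called 1 of them lower, and of all 13339 genes it called 714 lower and 216 higher. Actg2 came closest, with an interaction of −1.69 on the log2 scale (SE 0.37, 95% interval −2.56 to −0.82, adjusted p = 0.104), a larger fall in P cells. It was called lower with DESeq2 (adjusted p = 0.00113), with DESeq2 size factors (adjusted p = 0.0950) and without the filter on low counts (adjusted p = 0.0650). The interaction was 0.28 for Acta2, 0.56 for Tagln and 0.50 for Myl9, with adjusted p between 0.505 and 0.512. It was −0.82 for Srf, −0.85 for Tpm1, −1.25 for Tpm2, −0.47 for Vcl and −0.93 for Ankrd1, with adjusted p between 0.298 and 0.459. Without replica 1 of P cells at day −2, the interaction of Actg2 was −1.86. Without replica 2 of that condition, the interaction was −1.19 for Srf, −1.54 for Actg2, −1.19 for Tpm1 and −1.66 for Tpm2. It was −0.65 for Vcl, 0.46 for Acta2 and 0.89 for Myl9. Each of these fits left 1 library in that condition, so their calls are not given. The outcome of this comparison rested on these 2 libraries.

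The rest of the SRF pathway was covered by 7 lists of 83 genes, of which 79 were tested, and 6 of the lists are described one by one. Induction lowered 20 and raised 7 of them in C cells, beside 9.68% and 10.7% of all genes, so that the raised share was near that of all genes. It lowered 35 and raised 1 in P cells, beside 10.4% and 7.65% of all genes. In P against C cells, 15 were called higher and 1 lower at day −2, beside 4.83% and 2.15% of all genes. At day 1 there were 2 called higher, a share near the 1.83% of all genes. Their medians were −0.60, −0.92, 0.38 and −0.01 in these comparisons, each closer to 0 than that of the 9 genes. The 15 calls at day −2 moved with single libraries: they came to 3 without either C library of that day, to 9 and 23 without replica 1 and replica 2 of P cells at day −2, to 8 without either C library of day 1 and to 5 without either P library of day 1. The 2 calls at day 1 came to 0 without any 1 library of that day, to 1 without either C library of day −2 and to 4 without either P library of day −2.

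SRF cofactors were the first list, with 7 of 8 genes tested. Fhl2, a LIM protein that binds SRF, fell by 2.04 on the log2 scale in C cells (adjusted p = 0.00158), from 54.4 and 55.4 CPM to 12.2 and 14.5 CPM. Elk3, a ternary complex factor, fell by 1.91 in P cells (adjusted p = 4.2e-04), from 81.8 and 74.2 CPM to 19.5 and 22.0 CPM. Both were called lower in C as well as in P cells, beside 9.68% and 10.4% of all genes, and no other cofactor was called there. Mrtfa lay between 57.0 and 138 CPM and Mrtfb between 28.4 and 54.5 CPM over the libraries, and Myocd, the myocardin of smooth muscle, was too low to test. Between P and C cells, edgeR and DESeq2 called none of the 7 genes at either day. By edgeR, 2 had an unadjusted p under 0.05 at day −2 and 1 at day 1. The same held for 3366 and 2166 of all 13339 genes.

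Other contractile genes of smooth muscle, 14 in number, held 6 that were called higher and 1 that was called lower in P than in C cells before the trigger, beside 4.83% and 2.15% of all genes. Lmod1, which codes for leiomodin, a nucleator of actin filaments in smooth muscle, was called in all 4 comparisons, alone among the 83 genes. It was measured at 0.717 and 0.975 CPM in C cells and 21.8 and 12.1 CPM in P cells at day −2 (log2 ratio 4.32, adjusted p = 0.00266). At day 1 its 51 counts in P cells against 5 in C cells gave an 11.5-fold ratio, with a 95% exact interval from 4.61 to 36.9 for counting error. Csrp2, a LIM protein, went the other way, with a log2 ratio of −1.53 (adjusted p = 0.0145) at day −2. Mylk, which codes for the kinase that phosphorylates the myosin light chain, had 15.2 and 13.7 CPM in C cells and 38.4 and 26.0 CPM in P cells at day −2, and 7.34 and 9.04 CPM in C cells and 3.76 and 4.67 CPM in P cells at day 1. Its P libraries were above the C libraries before the trigger and below them after it, where edgeR did not call it (log2 ratio −0.96, adjusted p = 0.111). Induction lowered 4 of the 14 genes in C cells, beside 9.68% of all genes. In P cells it lowered 9, beside 10.4% of all genes, and raised Csrp2. Of the 14, the interaction called Mylk, beside 1.93% of all genes called lower.

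Of 25 non-muscle cytoskeleton and focal adhesion genes, induction lowered 7 in C cells and 17 in P cells, beside 9.68% and 10.4% of all genes, and the other 18 and 8 were not called. The largest called falls with at least 50 counts on average were those of Tmsb4x in C cells (log2 ratio −3.34, adjusted p = 9.7e-04), which codes for the actin monomer binder thymosin beta 4, and of Fhl3 in P cells (log2 ratio −2.77, adjusted p = 0.00134). In P cells at day −2, 2 of the 25 were called higher, beside 4.83% of all genes, led by Fhl1, a LIM protein of muscle (log2 ratio 2.35, adjusted p = 0.00581), which was also called at day 1 (log2 ratio 1.13, adjusted p = 0.0828). The cytoplasmic actins, looked at after their values were seen, had smaller log2 ratios than the smooth muscle actins, and the difference was not tested. Actb had log2 ratios of −0.78 and −0.77 for the inductions in C and P cells and 0.04 for P against C cells at each day. Actg1 had −1.01, called, and −0.68 for the inductions, and 0.23 and 0.55 for P against C cells. Reads shared between actins, tropomyosins or myosin light chains may be split between near-identical genes, since the counting of such reads is not given in the sources used here.

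Striated muscle genes were low, under 5 CPM in every library but for Tnnt2, and 6 of 9 could be tested. Myh3, an embryonic myosin heavy chain, was called lower on induction in C cells (log2 ratio −2.56, adjusted p = 0.0781). This rested on few counts, 11 and 7 at day −2 and 2 and 1 at day 1. DESeq2, but not edgeR, called it higher in P than in C cells at day 1. Tnnt2, the troponin T of heart muscle, lay at 93.3 and 76.0 CPM in C cells and 127 and 52.7 CPM in P cells at day −2. It fell to 10 counts in the C libraries of day 1 from 4058, a 430-fold lower level with a 95% exact interval from 233 to 896 for counting error, and in P cells it fell by 8.25 on the log2 scale. It showed no called difference between P and C cells (log2 ratios 0.08 and 0.54). Myf5, a determinant of skeletal muscle, was at 0 counts in all 8 libraries.

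Of 8 targets that SRF shares with YAP and TEAD, induction lowered 5 in C cells and 6 in P cells, beside 9.68% and 10.4% of all genes, and Ccn1 and Tead1 were called in neither. Ccn2, a matrix protein and standard readout of YAP, fell by 2.69 and 3.62 on the log2 scale in C and P cells (adjusted p = 0.00143 and 8.3e-04). Ccn2 and Ankrd1 were both without a called difference between P and C cells at day −2. In P cells at that day 2 of the 8 were called higher, beside 4.83% of all genes. Amotl2 lay at 961 and 367 CPM there, with the replicas far apart (log2 ratio 1.52, adjusted p = 0.0787). Lats2 lay at 141 and 93.0 CPM (log2 ratio 1.34, adjusted p = 0.0156). Both genes are known as negative regulators of YAP, whose activity was not tested.

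Of 8 immediate early genes driven by the ternary complex factors, induction raised 6 in C cells, beside 10.7% of all genes, with a median log2 ratio of 2.59 for the list. Fos rose from 25.7 and 38.0 CPM to 771 and 952 CPM (log2 ratio 4.76, adjusted p = 0.00307), and Egr1 from 34.7 and 39.3 CPM to 291 and 276 CPM (log2 ratio 2.94, adjusted p = 1.8e-04). At day −2, 5 of 8 were called higher in P than in C cells, beside 4.83% of all genes. Junb, Mcl1 and Egr3 were not called there, and Egr3 had a log2 ratio of −0.91 (adjusted p = 0.140). In P cells of that day Fos lay at 317 and 78.3 CPM (log2 ratio 2.63, adjusted p = 0.0559), with the replicas far apart, and Egr1 at 150 and 112 CPM (log2 ratio 1.82, adjusted p = 0.00346). On induction in P cells edgeR called none of the 8, with 2 under an unadjusted p of 0.05, beside 4894 of all 13339 genes. The log2 ratios of the 8 lay between 0.25 and 1.55. Egr1 had a log2 ratio of 0.97 (adjusted p = 0.0107), so that its adjusted p was under the threshold and its 1.96-fold ratio just inside 2. DESeq2 called 2 of the 8 higher there, beside 1035 of all genes. At day 1 the P libraries of Egr1 lay at 258 and 256 CPM, below both C libraries. No gene of the list was called at day 1 by edgeR or DESeq2. By edgeR, 1 had an unadjusted p under 0.05, beside 2166 of all 13339 genes.

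**Figure D3:**
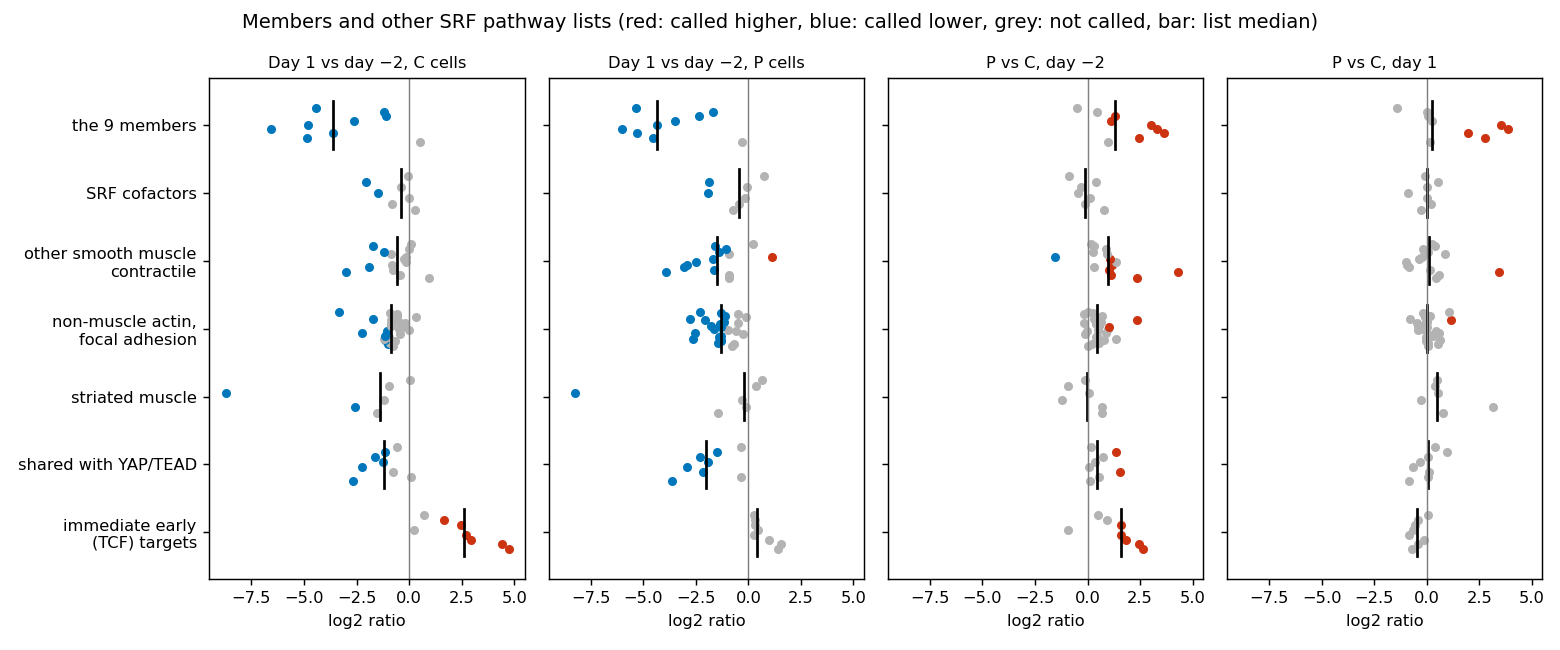
Log2 ratio of each tested gene (points) of the 10-gene group and of 6 pathway lists in the 4 comparisons, with red for called higher, blue for called lower, grey for not called and a bar at the median. The contractile group lies lowest on induction, with medians of −3.62 and −4.33, and the immediate early list lies above 0 in C cells, with a median of 2.59.

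Among 10895 other genes with at least 50 counts on average, the patterns most like that of Acta2 were found from the log2 CPM centred on each gene's mean over the 8 libraries. The root-mean-square difference was 0.47 for Col8a1, a short-chain collagen of vessel walls, 0.49 for Gpr176, an orphan receptor, 0.90 for Akap12, a scaffold of protein kinase A, 0.94 for Adra1d, an alpha-1 adrenergic receptor, and 0.98 for Lce1g. Within the group the difference from Acta2 was 0.38 for Myl9, 0.56 for Actg2 and 0.80 for Tagln, and 1.34 or more for the other genes tested, up to 2.65 for Srf. Col8a1 lay at 16.6 and 18.0 CPM in C cells and at 164 and 78.3 CPM in P cells at day −2, and at 0.513 and 0.876 CPM and 3.50 and 3.03 CPM at day 1, with the conditions in the order of Acta2. Srf was most like Sphk2, a sphingosine kinase (0.07), Nek8, a kinase of the cilium (0.08), and Srprb, a subunit of the signal recognition particle receptor (0.08). Like Srf, all 3 were highest in replica 1 of P cells at day −2, as Sphk2 shows with 67.5 CPM there and 28.0 to 47.4 CPM in the other libraries. These likenesses are descriptions over 8 libraries that share 4 conditions.

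**Figure D4:**
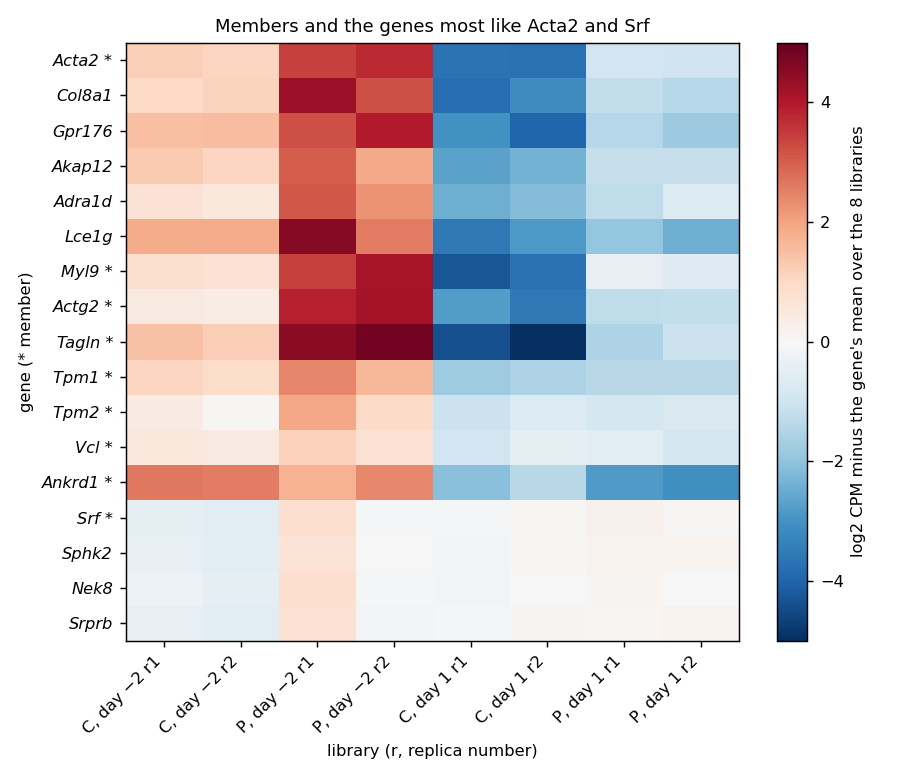
Log2 CPM of the tested genes and of the genes most like Acta2 and Srf, centred on each gene's mean, in the 8 libraries (columns, by condition and replica), with colour for the difference from the mean in log2 units. Acta2, Myl9, Actg2, Tagln, Col8a1 and Gpr176 are highest in P cells at day −2 and lowest in C cells at day 1, and Srf and its likest genes are highest in replica 1 of P cells at day −2, where Srf is 0.83 above its mean.

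Some counts of the group may include reads of a neighbour. In the reference gene list, Tagln overlaps Pcsk7, Tpm2 overlaps Car9, Vcl overlaps Ap3m1 and Srf overlaps Mir6976. The use of strand in the counting is not given in the sources used here, so reads in these stretches cannot be told apart.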

How the data were processed

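The authors cleaned Ion Torrent reads of 8 libraries with the FASTX-Toolkit, aligned them to mm9 with TopHat2 2.0.9 (the submitters' processing notes) and deposited raw whole-number counts per NCBI gene, made in R against the UCSC refGene annotation. Column names were matched to replicas through the labels. The 10 genes and the gene lists were chosen with earlier results of these data known. Gene symbols were looked up in the RefSeq annotation of GRCm38.p6, a later build, for 23929 of 24013 genes, and for all 10 genes and all 83 pathway genes. It was used for names and, through its own coordinates, for overlaps of neighbours, while the reads had been aligned to mm9. It gives no transcript lengths, so levels were not compared between genes.

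In R 4.3.3, edgeR 4.0.16 (limma 3.58.1) filtered genes with filterByExpr (13339 left), scaled libraries by TMM and fitted all 8 libraries by quasi-likelihood, each condition having 1 mean. Calls needed a Benjamini-Hochberg adjusted p under 0.1, two-sided and over all genes tested, and a ratio over 2 or under 0.5, after the thresholds of the study's methods. The interaction was called on the adjusted p alone. Intervals of ratios are 95% intervals on the model's degrees of freedom. Centred log2 CPM used a prior count of 2. Ratios of few counts carry exact binomial intervals, and reads without molecular identifiers are not independent molecules. The comparisons share libraries: each library enters the induction of its cell and the P against C comparison of its day. P-values measure the spread between replicas, pooled over all 4 conditions and with information shared across genes. The P replicas of day −2, which stood far apart, thus enter the spread of every comparison. The model was tested on simulated counts. DESeq2 1.42.0, other scalings, filters and thresholds, a replica block and left-out libraries were alternatives.

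All 10 genes were named whatever their values. Pathway genes were named when called in all 4 comparisons or in the interaction, or as the largest called change of their list in a comparison with a mean of at least 50 counts, and other genes where a count was small. The genes most like Acta2 (5) and Srf (3) were those with the smallest root-mean-square difference. The genes of 1 pathway list are in the totals over all lists and are not reported here on their own.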

Additional observations from a re-analysis of the deposited data

Results flagged for a closer look

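The change from day −2 to day 1 differed between P and C cells, by the edgeR interaction test, for 3 genes of the SRF pathway lists. These were 3 of the 79 genes tested, all called lower, beside 1.93% of all genes called lower and 0.435% called higher. Mylk, the myosin light chain kinase, had an interaction of −2.11 on the log2 scale (adjusted p = 0.0483). It fell by 2.93 in P cells and had a log2 ratio of −0.82 in C cells. Egr1, an immediate early transcription factor, had an interaction of −1.96 (adjusted p = 0.0205), with log2 ratios of 2.94 in C cells and 0.97 in P cells. Egr2, of the same family, had an interaction of −2.44 (adjusted p = 0.0635), with log2 ratios of 2.69 in C cells and 0.25 in P cells. For all 3 genes the P libraries were above the C libraries at day −2, where each was called higher in P cells. The P libraries were below the C libraries at day 1, where none of the 3 was called. A drop of the P against C ratio from day −2 to day 1 was part of how these genes were picked. This order is thus no separate support, and the share of such orders over all genes was not counted. The log2 ratios of P against C at day 1 were −0.96 for Mylk, −0.14 for Egr1 and −0.86 for Egr2. The interaction calls of all 3 were lost when any C library or either P library of day 1 was left out, while the interactions stayed between −1.94 and −2.27 for Mylk, −1.88 and −2.06 for Egr1 and −2.30 and −2.58 for Egr2. Mylk and Egr2 also lost the call in a replica block (adjusted p = 0.131 and 0.133). The omissions of P libraries of day −2 moved the interactions more. Without replica 1 and replica 2 of that condition, they were −1.83 and −2.37 for Mylk and −1.76 and −2.16 for Egr1. For Egr2 they were −1.94 and −2.83. Of the 9 contractile genes tested, none was called by edgeR in this comparison. Of these, 2 had an unadjusted p under 0.05, beside 1922 of all 13339 genes. DESeq2 called 1 of them lower, beside 714 of all genes.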

How the results depend on the processing

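The numbers of the labels did not pair the replicas: of 6 correlations between the deviations of same-numbered libraries, 5 were negative (−0.355 to 0.209). With the replicate block, 4 genes of the group were higher in P than in C cells at day −2 in place of 6, Tpm1 and Tpm2 losing the call (adjusted p = 0.118 and 0.128). The block gave 7 pathway genes higher at day −2, 1 higher at day 1 and 1 lower in the interaction. Crossed numbers were tried after seeing the data: with those of P cells at day 1 crossed, the pathway counts were 8, 1 and 1, and with all day 1 numbers crossed, 3 pathway genes were higher on induction in P cells.

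Leaving out each library in turn gave 6 to 8 genes of the group lower on induction in C cells and 8 in P cells, 4 to 7 higher in P cells at day −2, 3 to 4 higher and 0 to 1 lower at day 1, and 0 to 2 higher and 0 to 5 lower in the interaction.

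For the pathway genes, the same omissions gave 1 to 4 higher on induction in P cells, 3 to 23 higher and 0 to 5 lower at day −2, 0 to 4 higher at day 1, and 0 to 15 higher and 0 to 47 lower in the interaction. Library totals in place of TMM, which moved the median of all genes by up to 0.287 on the log2 scale, gave 4 pathway genes higher on induction in P cells and 9 higher and 2 lower at day −2. Over all genes, library totals turned 1020 higher and 1386 lower into 1288 and 1074 on induction in P cells, 644 and 287 into 453 and 365 at day −2, and 58 and 258 into 86 and 186 in the interaction. DESeq2 gave 4 higher on induction in P cells, 4 higher at day 1, and 1 higher and 16 lower in the interaction, and it called 1 gene of the group lower at day 1 and 1 lower in the interaction. DESeq2 size factors also called 1 of the group in the interaction. Without the low-count filter there were 4 pathway genes higher on induction in P cells, 8 lower in the interaction and 1 of the group lower in it. With at least 10 counts in every library, which drops Tagln and Ankrd1, there were 1 higher at day 1 and 5 lower in the interaction. With the conditions of each comparison alone, 0 were higher on induction in P cells, 1 higher and 0 lower at day −2, and 4 higher at day 1. This setting also lost Tpm1 and Tpm2 at day −2 (adjusted p = 0.335 and 0.319). An adjusted p under 0.05 left 8 higher at day −2 and 1 at day 1. Without a threshold on the ratio, 36 were lower on induction in C cells, 2 higher in P cells, 24 higher and 2 lower at day −2, and 5 higher and 1 lower at day 1. Without both P libraries of day −2, added after seeing the data, 4 pathway genes were higher and 1 gene of the group was lower at day 1.

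Signs near 0 turned in 3 results: Srf on induction in P cells (0.17 without replica 1 of P cells at day −2), Vcl at day 1 (0.10 with library totals, 0.0169 with all day 1 numbers crossed, 0.23 without replica 2 of C cells and 0.15 without replica 2 of P cells at day 1) and Tpm2 at day 1 (−0.15 without replica 1 of C cells and −0.02 without replica 2 of P cells). Where a fit lost a library, the lone replica was taken to vary like the other conditions, so counts of calls under single omissions rest on that assumption. Over all genes too, calls in the interaction were most frequent without replica 2 of P cells at day −2. Levels per transcript length were not run, since the gene list gives none. Single omissions put these 3 between −0.69 and 0.17, −0.25 and 0.23, and −0.15 and 0.24. Depth limits Tagln, Ankrd1, Lmod1 and Myh3 at day 1 and Cnn1 throughout.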
